A study of Homo sapiens with 6 samples.

Results

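Integrins and laminins are the receptors and ligands by which epithelial cells hold on to the basement membrane. A laminin is a trimer of an α, a β and a γ chain that the cell secretes into the sheet beneath it. An integrin is a pair of an α and a β chain that crosses the plasma membrane, binds laminin, collagen or proteins with an RGD motif outside, and joins actin or keratin filaments inside. In squamous epithelium the pair of ITGA6 and ITGB4 sits in hemidesmosomes, the rivets that tie keratin filaments to laminin, while most other α chains pair with the common β chain ITGB1.

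The 34 genes described here, 24 integrin chains and 10 laminin chains, were chosen by symbol and are part of the 67140 gene identifiers in the table. They were measured in the established human line KYSE150, from an esophageal squamous cell carcinoma (ESCC), in 3 samples that carry shCtrl, the control hairpin, and 3 that carry shAC007128.1, a hairpin against the lncRNA AC007128.1. All cells were grown at 37 °C in RPMI 1640 with 10% fetal bovine serum, and the methods describe lentiviral lines kept with puromycin. The design holds 1 cell line, 1 hairpin and 1 control hairpin, and nothing in the labels says whether the samples of a group came from separate cultures, so p-values measure the spread between these samples only.

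Total counts ranged from 55764405 to 78610457 per sample, at which 3 counts, taken as the smallest detectable level, correspond to 0.0373 to 0.0546 CPM (counts scaled to library size with edgeR's TMM factors). This floor covers counting error only. AC007128.1 itself, the target, had 69, 33 and 53 counts in the shCtrl samples and 18, 37 and 15 in the shAC007128.1 samples, so the groups overlapped (log2 fold change -0.77, standard error, SE, 0.51, edgeR adjusted p = 0.271). Of the 1853 exonic bases of AC007128.1, 384 are shared with ENSG00000272328 and 398 with ICA1-AS1 on the same strand, and 118 with ICA1 on the opposite strand. Its count is uncertain to that extent. A fall of the targeted lncRNA was thus not detected in these counts, and shAC007128.1 names the hairpin below, not a depletion measured here. The paper reports by qPCR that its hairpin lowered AC007128.1. Of the 7 squamous epithelial markers chosen for the check, all 7 were detected and 5 rose (71.4%, against 21% of all genes tested). KRT17 and TP63 did not, with log2 fold changes of 0.45 and -0.27 (edgeR adjusted p = 0.10 and 0.41). The summed level of the 7 was 1890 to 1940 CPM in shCtrl and 2700 to 3420 CPM in shAC007128.1 samples. KRT14, a basal keratin, was the 1 called higher among the 7, with a log2 fold change of 2.28 (SE 0.10, edgeR adjusted p = 1.89e-05). The part of this shift in the results below was not tested, and in bulk RNA a change in the number of cells of a kind cannot be told apart from a change in the RNA of each cell.

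To be called, a gene needed a p of at most 0.05 in edgeR's quasi-likelihood test after Benjamini-Hochberg adjustment, and a fold change of 2 or more, which is 1 on the log2 scale in either direction. Below, "rose" and "fell" are used of genes past the adjusted p, and "called" only of those that also passed the limit on fold change. Of the 34 chains, 25 passed edgeR's filter on low counts and were tested, 9 did not, and ITGA8 and LAMA4 had 0 counts in all 6 samples, which allows up to 0.0546 CPM in the shallowest of them. Of the 25, 2 were called higher (ITGB6 and ITGB8) and 2 lower (ITGAX and LAMC1), against 5.57% called higher and 10.1% called lower among all 19254 genes tested. The called share, 16%, was thus close to the 15.7% of all genes. At the adjusted p alone 7 chains rose (28%) and 6 fell (24%), against 21% and 19.8% of all genes. The groups did not overlap in 15 of the 25 (60%, against 55.2% of all genes), with shAC007128.1 samples higher in 8 (27% of all genes) and lower in 7 (28.2% of all genes). The median log2 fold change was -0.02 over the 25 chains and -0.02 over all genes tested. As a family, therefore, the chains moved about as often as other genes, and what follows is which of them moved in which direction.

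**Figure D1:**
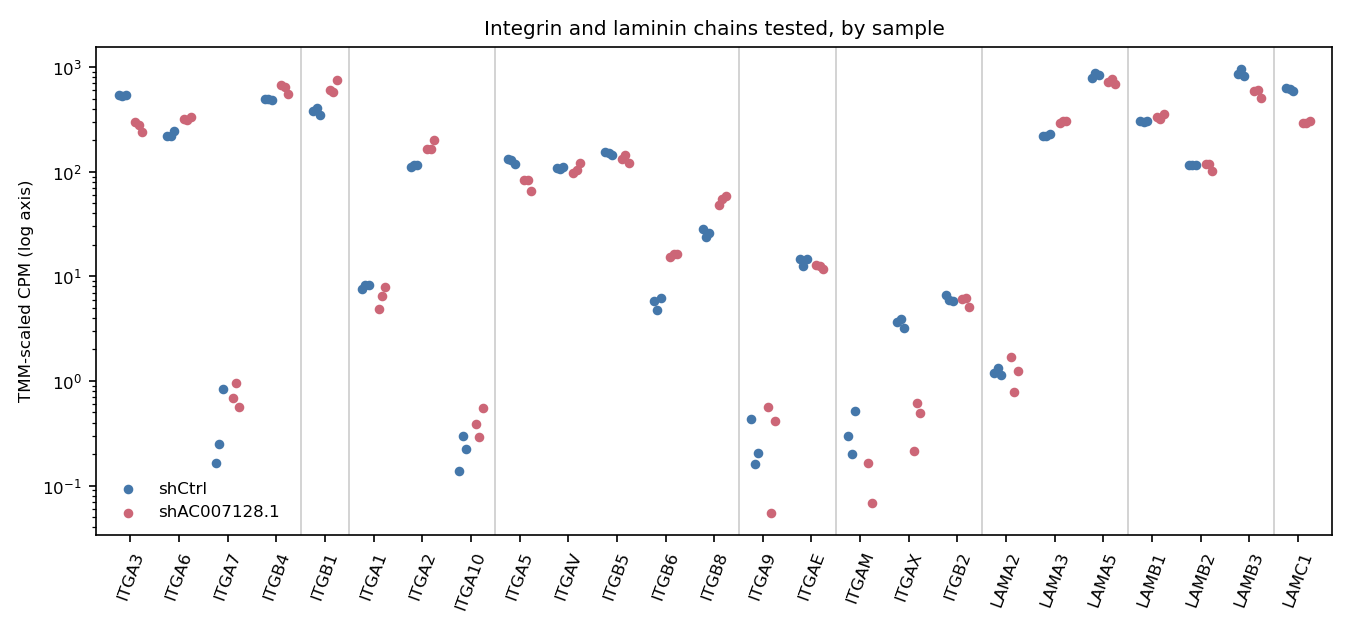
TMM-scaled CPM on a log axis of the 25 tested chains in each of the 3 shCtrl and 3 shAC007128.1 samples, in blocks divided by grey lines: laminin receptors, ITGB1, collagen receptors, RGD receptors, ITGA9 and ITGAE, leukocyte chains, and laminin α, β and γ chains. The shAC007128.1 samples of LAMC1 sat between 295 and 307 CPM and the shCtrl samples between 591 and 639, and 1 shAC007128.1 sample of ITGAM at 0 CPM is not drawn.

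Of the laminin chains, LAMC1 changed most. It encodes the γ1 chain, which is shared by most laminins of basement membranes outside the epidermal anchoring type. LAMC1 (chr1:183023420-183145592, plus strand, in the GENCODE v44 annotation of GRCh38) had 639, 621 and 591 CPM in shCtrl replicates 1, 2 and 3 and 295, 295 and 307 CPM in shAC007128.1 replicates 1, 2 and 3. Each shAC007128.1 sample was thus far below every shCtrl sample. The mean went from 617 ± 24.4 CPM (SD, n = 3) to 299 ± 7.02 (SD, n = 3), a log2 fold change of -1.04 (SE 0.06, edgeR adjusted p = 3.94e-05). The other γ chain in the list, LAMC3, had at most 9 counts in a sample and was not tested.

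The β chains moved apart. LAMB3, the β3 chain of the laminin that anchors the epidermis, had 859, 957 and 821 CPM in the shCtrl samples and 592, 610 and 503 CPM in the shAC007128.1 samples. The groups did not overlap, and the fall was under the limit for a call (log2 fold change -0.63, SE 0.09, edgeR adjusted p = 0.00175). LAMB1, the β1 chain of the laminins that hold LAMC1, had 303, 296 and 304 CPM in shCtrl samples and 334, 323 and 355 CPM in shAC007128.1 samples. It lay higher in every shAC007128.1 sample but did not pass the adjusted p (log2 fold change 0.16, SE 0.06, adjusted p = 0.073), and 300 of its exonic bases are shared with DLD on the opposite strand. LAMB2, the β2 chain, had a mean of 116 CPM in shCtrl and 114 CPM in shAC007128.1 samples, and its groups overlapped (log2 fold change -0.03, SE 0.08, edgeR adjusted p = 0.83).

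Among the α chains, LAMA3 rose and LAMA5 fell slightly. LAMA3, the partner of LAMB3 in the anchoring laminin, had 221, 221 and 229 CPM in shCtrl samples and 292, 303 and 305 CPM in shAC007128.1 samples. Its log2 fold change was 0.42 (SE 0.06, edgeR adjusted p = 0.0012), so it rose while LAMB3 fell. LAMA5, the α5 chain of the main laminin of adult epithelia, went from 840 ± 41.2 CPM (SD, n = 3) to 726 ± 43.9 (SD, n = 3), a log2 fold change of -0.21 (SE 0.07, edgeR adjusted p = 0.0421). That fall is at the edge of the threshold: it missed it without shCtrl replicate 2 (adjusted p = 0.15), shCtrl replicate 3 (0.116), shAC007128.1 replicate 1 (0.0818) or shCtrl replicate 1 (0.0593). LAMA2, the α2 chain known from muscle, was low, at 1.23 and 1.25 CPM, with no direction that held across settings (edgeR adjusted p = 0.967). LAMA1 had 0 to 20 counts per sample and was not tested.

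The promoter of LAMC1 is shown because the gene was called. Those of LAMB3 and LAMA3, which were not called, are shown because they hold the AP-1 motif. For LAMB3 only the window with that motif is shown, so the AP-1 matches in these sequences follow from the choice. Sequences are RefSeq's on GRCh38.p14 and cover 300 bases each, most of them upstream of a gene start, 5′ to 3′ on the gene's strand. Capitals mark matches on either strand to the AP-1 motif TGANTCA, the GC box GGGCGG, the TEAD motif GGAATG and the E-box CACGTG.
LAMC1 promoter, chr1:183023170-183023469, plus strand: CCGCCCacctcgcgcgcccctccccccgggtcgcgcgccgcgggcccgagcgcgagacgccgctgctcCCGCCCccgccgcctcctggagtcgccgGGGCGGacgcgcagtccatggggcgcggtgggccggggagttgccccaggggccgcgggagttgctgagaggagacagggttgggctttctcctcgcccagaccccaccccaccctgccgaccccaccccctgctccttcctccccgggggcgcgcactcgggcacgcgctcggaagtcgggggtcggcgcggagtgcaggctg
LAMB3 promoter, chr1:209651325-209651624, minus strand: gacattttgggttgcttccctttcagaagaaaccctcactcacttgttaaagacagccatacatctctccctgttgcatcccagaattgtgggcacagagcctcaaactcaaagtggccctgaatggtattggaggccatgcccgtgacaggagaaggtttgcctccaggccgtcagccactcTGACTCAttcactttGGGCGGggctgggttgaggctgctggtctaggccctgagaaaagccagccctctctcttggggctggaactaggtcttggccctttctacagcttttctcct
LAMA3 promoter, chr18:23872770-23873069, plus strand: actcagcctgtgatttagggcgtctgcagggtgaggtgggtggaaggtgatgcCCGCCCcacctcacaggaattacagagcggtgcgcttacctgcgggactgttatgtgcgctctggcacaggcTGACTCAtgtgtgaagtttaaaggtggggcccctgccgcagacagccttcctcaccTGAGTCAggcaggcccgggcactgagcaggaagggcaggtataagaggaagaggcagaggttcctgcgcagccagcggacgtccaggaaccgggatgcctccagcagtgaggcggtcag
The LAMC1 window is 79% G and C, with 3 GC boxes and none of the other motifs. The LAMB3 window is 1 of 3 starts that RefSeq lists for the gene, and it is the only one with an AP-1 motif, 1, beside 1 GC box. The other two LAMB3 windows hold 1 GC box each and 0 AP-1 motifs. The LAMA3 window, which starts inside the annotated gene, holds 2 AP-1 motifs and 1 GC box. Promoters were found for 24 of the 34 chains, 31 windows in all. Of these windows 3 (9.68%) held the AP-1 motif, against 7.71% of all 35116 promoters, and they belong to ITGA5, LAMA3 and LAMB3. GC boxes were in 19 windows (61.3%, against 45% of all), TEAD motifs in 4 (12.9%, against 14%) and E-boxes in 1 (3.23%, against 7.26%). A match is a match of letters and does not show binding.

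The receptors for laminin also moved apart. ITGA3, which pairs with ITGB1 to bind laminin outside hemidesmosomes, had 540.3, 533 and 538.5 CPM in shCtrl samples and 299.5, 279 and 238 CPM in shAC007128.1 samples. The shCtrl samples lay close together, and all 3 shAC007128.1 samples were far below them, at a mean of 50.6% of the control level. The log2 fold change was -0.98 (SE 0.09, edgeR adjusted p = 0.000213), just short of the limit for a call, which it passed without shAC007128.1 replicate 1 (-1.06).

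ITGA6, the laminin-binding α chain of hemidesmosomes, rose instead. It had 219.5, 218 and 244 CPM in shCtrl samples and 320.3, 309.9 and 335 CPM in shAC007128.1 samples, a log2 fold change of 0.50 (SE 0.07, edgeR adjusted p = 0.00139). Its partner ITGB4, whose long inner tail binds plectin, had 498, 498 and 486 CPM in shCtrl samples and 676, 639.7 and 557.5 CPM in shAC007128.1 samples. Every shAC007128.1 sample was above every shCtrl sample for both chains. The ITGB4 rise was small, at 0.34 on the log2 scale (SE 0.08, edgeR adjusted p = 0.0128), and it missed the threshold without shCtrl replicate 3 (adjusted p = 0.0557). ITGA7, a laminin-binding chain of muscle, was at 0.418 CPM in shCtrl and 0.742 CPM in shAC007128.1 samples, and its groups overlapped because shCtrl replicate 3 had 0.84 CPM. Without that sample its log2 fold change was 1.83 (edgeR adjusted p = 0.0353), against 0.83 with it (adjusted p = 0.333).

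ITGB1, the common β chain, rose in all shAC007128.1 samples. It had 381, 405 and 351 CPM in shCtrl samples and 607, 575 and 751 CPM in shAC007128.1 samples, with the third well above the other two. The log2 fold change was 0.76 (SE 0.11, edgeR adjusted p = 0.00157). Its α partners did not follow in 1 direction, since ITGA3 and ITGA5 fell while ITGA2 and ITGA6 rose.

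**Figure D2:**
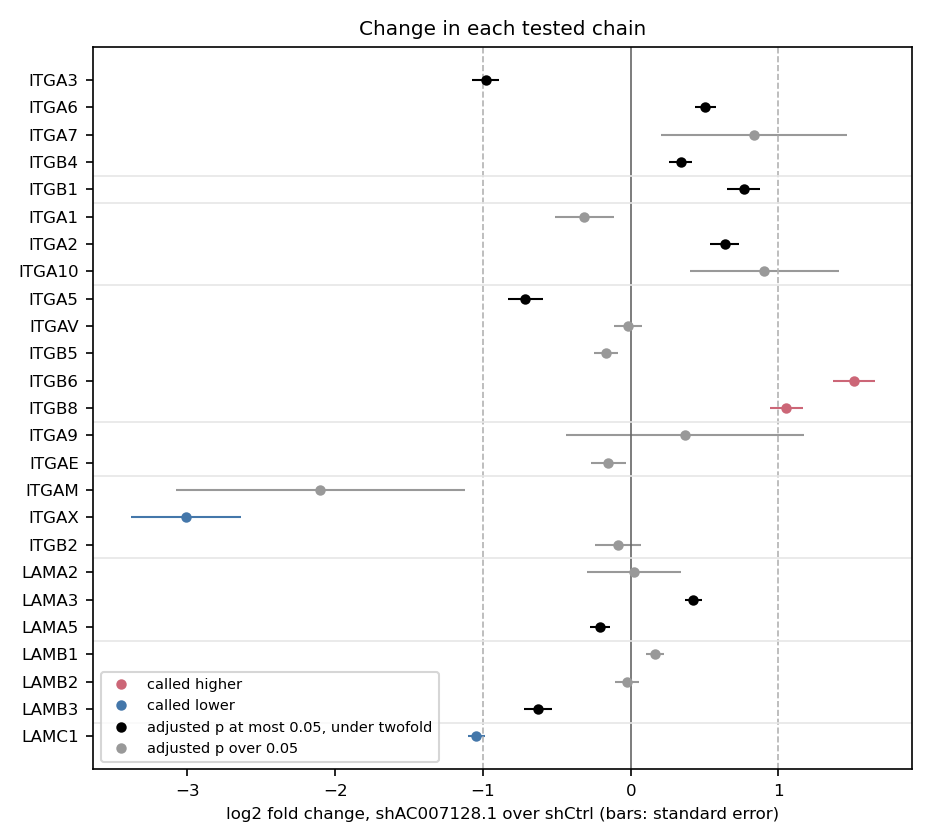
Log2 fold change of shAC007128.1 over shCtrl for each of the 25 tested chains, with standard errors from edgeR as bars; dashed lines mark the limit for a call. ITGB6 and ITGB8 lie to the right of the limit, ITGAX and LAMC1 to the left, ITGA3 at -0.98 lies just inside it, and ITGAM at -2.10 lies beyond it with a wide error and no call.

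Of the collagen receptors, ITGA2 rose. It encodes the α2 chain, the main collagen-binding α chain of keratinocytes. It had 110.8, 117 and 115.5 CPM in shCtrl samples and 164, 166 and 203 CPM in shAC007128.1 samples, a log2 fold change of 0.64 (SE 0.10, edgeR adjusted p = 0.00196). ITGA1, which lies 30130 bases upstream of ITGA2 on chromosome 5 and also binds collagen, had 7.49, 8.24 and 8.34 CPM in shCtrl samples and 4.87, 6.55 and 7.95 CPM in shAC007128.1 samples. Its groups overlapped (log2 fold change -0.31, SE 0.20, edgeR adjusted p = 0.249). Of its exonic bases, 499 are shared with PELO and 571 with RPL17P21 on the same strand, and 1385 with ITGA2-AS1 on the opposite strand. ITGA10 was at 0.219 and 0.411 CPM (edgeR adjusted p = 0.197), and ITGA11 had at most 23 counts and was not tested.

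The chains of RGD-binding receptors gave both genes called higher. ITGB6, an epithelial β chain that pairs with ITGAV and is known to release active TGF-β from its latent form, had at chr2:160099667-160200313 5.86, 4.81 and 6.19 CPM in shCtrl samples and 15.2, 16.4 and 16.4 CPM in shAC007128.1 samples. The level was 2.85-fold higher (log2 fold change 1.51, SE 0.14, edgeR adjusted p = 0.000227). Of its exonic bases 966 are shared with the same-strand gene ENSG00000285155, so its count is uncertain to that extent. ITGB8, the other β chain known for releasing TGF-β with ITGAV, had at chr7:20330702-20415754 28.2, 23.9 and 25.9 CPM in shCtrl samples and 47.6, 55.3 and 58.8 CPM in shAC007128.1 samples. It was 2.07-fold higher (log2 fold change 1.05, SE 0.11, edgeR adjusted p = 0.000419), and without shAC007128.1 replicate 3 (0.98) or shCtrl replicate 2 (0.99) it was below the limit on fold change. In both genes the groups were far apart.

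The shared partner of these β chains did not move with them. ITGAV, the αv chain, had 109, 106 and 111 CPM in shCtrl samples and 96.8, 105 and 121 CPM in shAC007128.1 samples, so the shAC007128.1 samples lay on both sides of the shCtrl samples (log2 fold change -0.02, SE 0.09, edgeR adjusted p = 0.895). ITGB5, the ITGAV partner with the highest level among the RGD-class β chains, had 149.6 ± 5.21 CPM (SD, n = 3) in shCtrl and 133.5 ± 10.9 (SD, n = 3) in shAC007128.1 samples (log2 fold change -0.16, SE 0.08, edgeR adjusted p = 0.149). ITGB3, the platelet and endothelial partner, had at most 12 counts in a sample.

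ITGA5, the α chain of the classical fibronectin receptor, fell. It had 131.8, 130.2 and 119.6 CPM in shCtrl samples and 83.95, 84.1 and 64.8 CPM in shAC007128.1 samples, a log2 fold change of -0.71 (SE 0.12, edgeR adjusted p = 0.00259). The lowest value was in shAC007128.1 replicate 3, and the groups did not overlap.

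The promoters of ITGB6 and ITGB8 are shown because these genes were called higher. That of ITGA5, which fell without a call, is shown because it holds the AP-1 motif. The marks are those used for the laminin promoters.
ITGB6 promoter, chr2:160200223-160200522, minus strand: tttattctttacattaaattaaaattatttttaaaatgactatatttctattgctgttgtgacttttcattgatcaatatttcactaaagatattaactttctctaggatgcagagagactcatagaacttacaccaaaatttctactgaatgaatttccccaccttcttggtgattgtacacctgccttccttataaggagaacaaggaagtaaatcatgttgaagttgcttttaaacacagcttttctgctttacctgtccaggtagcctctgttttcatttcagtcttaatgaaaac
ITGB8 promoter, chr7:20330650-20330949, plus strand: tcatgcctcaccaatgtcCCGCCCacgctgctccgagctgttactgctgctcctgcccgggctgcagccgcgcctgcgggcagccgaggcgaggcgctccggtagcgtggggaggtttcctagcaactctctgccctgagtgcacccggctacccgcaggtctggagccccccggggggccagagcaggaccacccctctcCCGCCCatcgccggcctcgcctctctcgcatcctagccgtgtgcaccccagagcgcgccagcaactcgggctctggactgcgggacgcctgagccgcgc
ITGA5 promoter, chr12:54419217-54419516, minus strand: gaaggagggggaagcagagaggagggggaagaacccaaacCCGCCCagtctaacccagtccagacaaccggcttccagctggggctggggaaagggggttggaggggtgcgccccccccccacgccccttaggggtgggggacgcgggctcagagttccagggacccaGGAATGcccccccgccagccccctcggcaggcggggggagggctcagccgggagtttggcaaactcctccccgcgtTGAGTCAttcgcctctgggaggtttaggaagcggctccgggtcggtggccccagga
The ITGB6 window is 31.7% G and C and holds none of the motifs. The ITGB8 window is 71.7% G and C and holds 2 GC boxes. The ITGA5 window holds 1 AP-1 motif, 1 TEAD motif and 1 GC box. The called β chains thus have start regions of very different base composition.

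Of the leukocyte chains, ITGAX was called lower and had the largest fall of the 25 tested chains. It encodes CD11c, best known as a marker of dendritic cells and macrophages. ITGAX (chr16:31355134-31382999) had 3.62, 3.92 and 3.24 CPM in shCtrl samples and 0.214, 0.619 and 0.499 CPM in shAC007128.1 samples, or 220 to 315 counts against 12 to 34. It was 8.07-fold lower (log2 fold change -3.01, SE 0.37, edgeR adjusted p = 0.000763). Its β partner ITGB2 was at 6.15 and 5.80 CPM with overlapping groups (log2 fold change -0.09, SE 0.15, edgeR adjusted p = 0.687). ITGAM, 22241 bases from ITGAX on chromosome 16, had 22, 16 and 35 counts in shCtrl samples and 0, 9 and 4 in shAC007128.1 samples, with an adjusted p of 0.13 from edgeR. Its groups did not overlap, at counts too low to call. ITGAL had at most 13 counts. Of the 6 leukocyte markers set beside these genes, 2 passed the filter, CD3E and CD14. CD3E had 54, 31 and 18 counts in shCtrl samples and 21, 45 and 54 in shAC007128.1 samples (log2 fold change 0.61, edgeR adjusted p = 0.394). CD14 had 22, 13 and 15 counts in shCtrl samples and 9, 13 and 2 in shAC007128.1 samples (-0.66, edgeR adjusted p = 0.514). LCP2 had 0 counts in every sample, and PTPRC had at most 9 counts. The summed level of the 6 was 0.649 to 1.04 CPM in shCtrl and 0.534 to 1.22 CPM in shAC007128.1 samples, with overlapping groups. What lay behind the fall of ITGAX was not tested.

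The remaining integrin chains did not pass the test. ITGAE, the α chain by which intraepithelial lymphocytes hold E-cadherin, was at 13.9 ± 1.20 CPM (SD, n = 3) and 12.5 ± 0.563 (SD, n = 3), with overlapping groups (edgeR adjusted p = 0.342). ITGA9, which can bind tenascin and other matrix proteins, had at most 0.569 CPM in a sample (edgeR adjusted p = 0.75). ITGA4 had 4 counts in 1 sample and 0 in the other 5, and ITGB7 had at most 20 counts.

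Levels of different chains were compared per kb of annotated exon, as CPM per kb. Among the α chains, ITGA3 led in shCtrl samples at 54.8 ± 0.382 CPM per kb (SD, n = 3), ahead of ITGA6 at 34 ± 2.16, ITGA5 at 17.2 ± 0.898, ITGA2 at 14.5 ± 0.41 and ITGAV at 5.62 ± 0.118. No neighbours in that order overlapped. In shAC007128.1 samples ITGA6 led at 48.2 ± 1.90 CPM per kb (SD, n = 3), and ITGA3 at 27.8 ± 3.18 overlapped with ITGA2 at 22.5 ± 2.76, ahead of ITGA5 at 10.5 ± 1.5. The order of these 4 means in each group was the same when the longest annotated transcript replaced all exons as the length. The lead of ITGA6 in shAC007128.1 samples was then no longer beyond the spread, at 55.3 ± 2.18 CPM per kb against 49.7 ± 5.69 for ITGA3.

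As a share of all member α chains per kb of annotated exon, ITGA3 went from 42.4% ± 0.497 (SD, n = 3) to 23.7% ± 2.73, and ITGA6 from 26.3% ± 1.31 to 41.2% ± 1.28. Together with ITGA7 the laminin-binding α chains held 68.7% ± 0.879 of the α pool in shCtrl and 65% ± 1.60 in shAC007128.1 samples, a difference of -3.71 percentage points against 8.02 for the collagen class. The collagen class thus went from 11.6% ± 0.373 to 19.6% ± 2.36 and the RGD class from 17.7% ± 0.848 to 13.7% ± 0.92. Each of these shifts was mainly that of 1 chain. ITGA2 went from 11.2% to 19.2%, while ITGA1 held 0.334% and 0.298%. ITGA5 went from 13.3% to 8.99%, while ITGAV held 4.35% and 4.74%. All α chains outside the laminin, collagen and RGD classes held 2.09% ± 0.123 and 1.72% ± 0.0695. In each of the 4 classes the groups did not overlap, and the two-sided exact permutation p was 0.1, the smallest that 3 samples against 3 allow, also after adjustment over the 4 classes. With the longest transcript as length, the difference in the RGD class was -1.91 percentage points in place of -3.94. The shares of single chains were not computed with that length.

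Among the β chains, ITGB4 led in shCtrl samples at 73.1 ± 1.02 CPM per kb (SD, n = 3), followed by ITGB1 at 26.0 ± 1.85 and ITGB5 at 23.0 ± 0.798. In shAC007128.1 samples the levels were 92.3 ± 8.95, 44.2 ± 6.43 and 20.5 ± 1.67 CPM per kb. The place of ITGB1 depends on the length used: per kb of its longest transcript it had 115 ± 16.7 CPM in shAC007128.1 samples, against 106 ± 10.3 for ITGB4, which is no difference beyond their spread. ITGB6 rose from 0.775% ± 0.115 to 1.69% ± 0.115 of the β pool and ITGB8 from 1.36% ± 0.118 to 2.17% ± 0.283, so both stayed minor chains by transcript level. Among the laminins, LAMB3 held 85.1% ± 1.04 of the member β chains in shCtrl and 77.8% ± 1.54 in shAC007128.1 samples, per kb of annotated exon. That share also depends on the length used. In shCtrl samples LAMB1 had 16.2 ± 0.239 CPM per kb of exon and 44.7 ± 0.66 per kb of its longest transcript, against 189 ± 15.1 and 204 ± 16.3 for LAMB3. LAMA3 went from 20.8% ± 0.85 to 29% ± 1.36 of the member α chains and LAMA5 from 79.1% ± 0.848 to 71% ± 1.38.

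**Figure D3:**
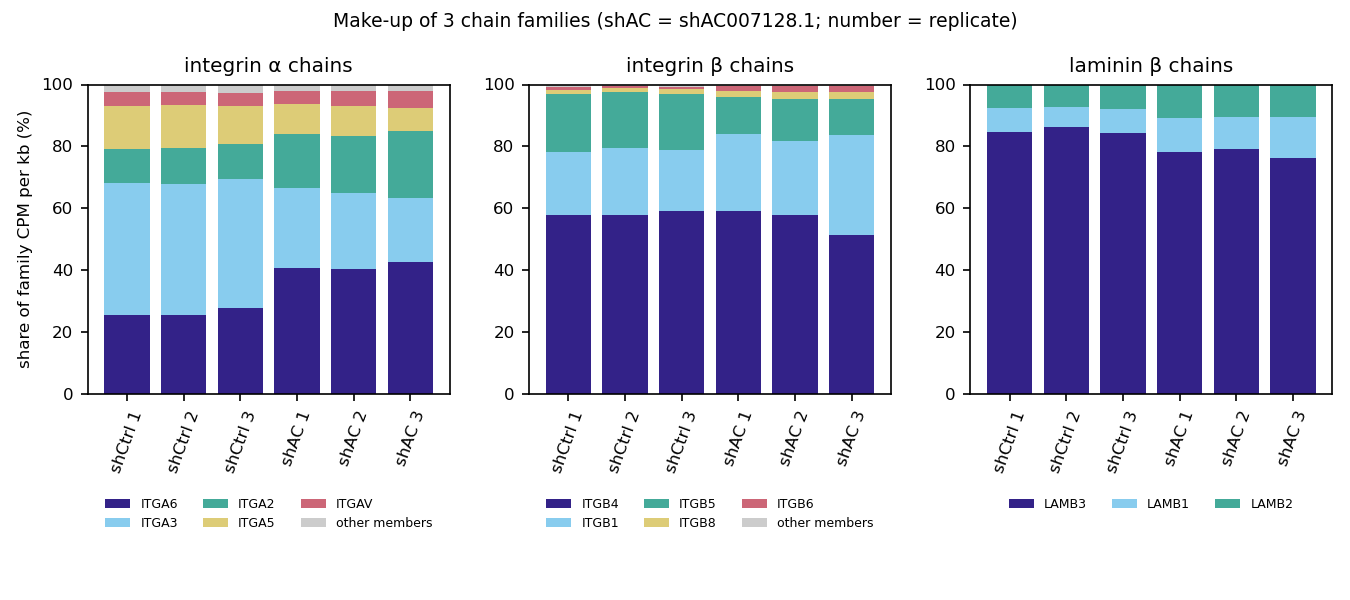
Stacked bars give, for each sample, the percentage of the summed CPM per kb that each chain holds among the integrin α, integrin β and laminin β chains in the list. ITGA6 takes 40.3 to 42.6% of the α pool in the shAC007128.1 samples against 25.5 to 27.8% in the shCtrl samples, with ITGA3 the other way.

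Ratios of paired chains within a sample were compared because they do not depend on library scaling. The log2 ratio of ITGA6 to ITGA3 counts was -1.30, -1.29 and -1.145 in shCtrl samples and 0.10, 0.15 and 0.49 in shAC007128.1 samples, a difference of 1.49. The ratio of ITGA2 to ITGA5, a collagen against a fibronectin receptor chain, went from -0.15 ± 0.10 (SD, n = 3) to 1.20 ± 0.39, a difference of 1.35. For LAMA3 to LAMA5 the difference was 0.63, and for LAMB3 to LAMB1 it was -0.79. The ratio of ITGB4 to ITGB1 differed least, by -0.42, and rested in part on shAC007128.1 replicate 3, without which the difference was -0.23. In all 5 ratios the groups did not overlap, and each two-sided exact permutation p was 0.1, the smallest possible here, also after adjustment over the 5.

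**Figure D4:**
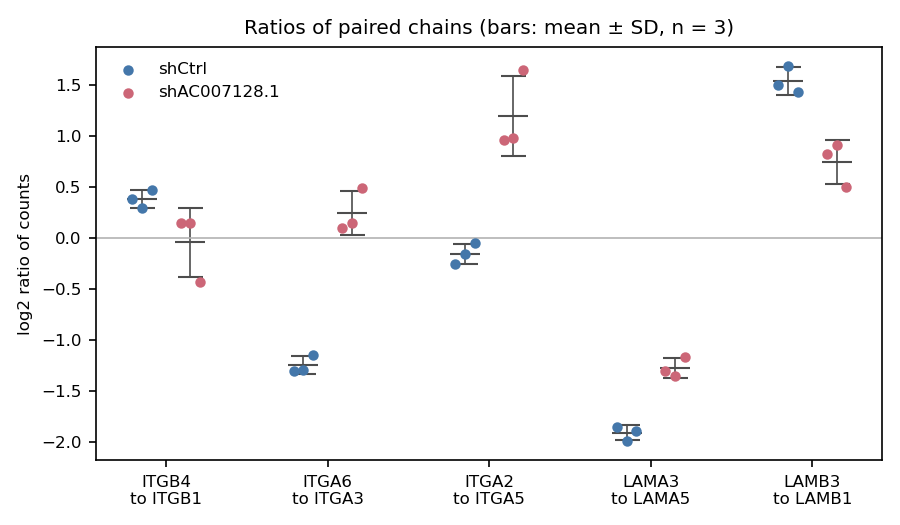
Log2 ratio of the counts of 5 chain pairs in each sample, with the mean and SD of 3 samples per group. The ITGA6 to ITGA3 ratio is below 0 in all 3 shCtrl samples and above 0 in all 3 shAC007128.1 samples.

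Genes that work with these chains were counted from lists drawn up by function. Of the 4 hemidesmosome partners, COL17A1 and CD151 rose (50%, against 21% of all genes) and none fell (against 19.8%). COL17A1, the transmembrane collagen of hemidesmosomes, went from 347 ± 6.50 CPM (SD, n = 3) to 540 ± 57.5 (SD, n = 3), a log2 fold change of 0.64 (SE 0.09, edgeR adjusted p = 0.00109). CD151, a tetraspanin that binds laminin receptors, had 0.26 (SE 0.09, edgeR adjusted p = 0.0491). DST, the plakin BPAG1, had 0.26 (edgeR adjusted p = 0.0613), and PLEC, chosen after its value was seen, had 0.02 (edgeR adjusted p = 0.897). The median of the list was 0.26, against -0.02 over all genes tested.

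Of the 11 other basement membrane proteins and laminin receptors, 10 were tested, of which 3 rose (30%, against 21% of all genes) and 1 fell (10%, against 19.8%). The called share of 20% stood beside 15.7% of all genes. COL4A1, a chain of the collagen network of basement membranes, went from 38.2 ± 2.45 CPM (SD, n = 3) to 104 ± 11.5 (SD, n = 3) and was called higher (log2 fold change 1.44, SE 0.11, edgeR adjusted p = 9.44e-05). COL7A1, which forms the anchoring fibrils under the basement membrane, was also called higher, at 1.09 (SE 0.12, edgeR adjusted p = 0.000444). COL4A2, the other collagen IV chain in the list, was chosen after its value was seen and did not go with COL4A1. It had 129 ± 3.86 CPM (SD, n = 3) in shCtrl and 126 ± 39.7 (SD, n = 3) in shAC007128.1 samples, with overlapping groups (log2 fold change -0.03, SE 0.21, edgeR adjusted p = 0.924). RPSA, the ribosomal protein also known as a laminin receptor, had a log2 fold change of 0.24 (edgeR adjusted p = 0.00759). The list's median was -0.02, the same as over all genes tested.

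Of 13 RGD ligands 11 were tested, of which 7 rose (63.6%, against 21% of all genes) and 2 fell (18.2%, against 19.8%), with a median log2 fold change of 0.39 against -0.02 over all genes tested. CCN2, a matrix protein and YAP target, was the 1 called, and it was lower, with 66.3 ± 2.34 CPM (SD, n = 3) in shCtrl and 24.7 ± 1.12 (SD, n = 3) in shAC007128.1 samples (log2 fold change -1.43, SE 0.08, edgeR adjusted p = 3.97e-05). EDIL3 and MFGE8, secreted ligands of ITGAV receptors, had log2 fold changes of 0.88 and 0.64 (edgeR adjusted p = 0.000467 and 0.000544). TGFB1 and LTBP1, a latent TGF-β and its binding protein, were chosen after their values were seen and had log2 fold changes of 0.39 and 0.93 (edgeR adjusted p = 0.00878 and 0.00725). Of 7 collagen ligands and DDR receptors, 5 were tested and 1 rose (20%, against 21% of all genes), COL1A1 (log2 fold change 0.33, edgeR adjusted p = 0.0462), while COL5A2 and COL5A1 had 0.83 and -2.13 (adjusted p = 0.0505 and 0.119), with COL5A1 at no more than 0.314 CPM in any sample.

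The list of 26 integrin adaptors mixes actin linkers with signaling proteins and regulators of integrins, so its counts do not speak for actin linkers alone. Of the 26 genes, 24 were tested, of which 7 rose (29.2%, against 21% of all genes), 1 fell (4.17%, against 19.8%) and 16 did not pass. TNS4, a short tensin, went from 54.4 ± 3.37 CPM (SD, n = 3) to 116 ± 4.56 (SD, n = 3) and was called higher (log2 fold change 1.10, SE 0.08, edgeR adjusted p = 8.65e-05). TNS3 had 0.80 (SE 0.07, edgeR adjusted p = 0.000147) and ACTN4, an actin crosslinker, 0.66 (SE 0.13, edgeR adjusted p = 0.00544). TNS1, the other gene called higher, was low, at 0.666 and 1.84 CPM, and was chosen after its value was seen. The list's median was 0.03. Of 6 fibroblast markers 2 were tested, and the list summed to 1.24 to 2.50 CPM in shCtrl and 4.48 to 5.57 CPM in shAC007128.1 samples. The tested pair moved in opposite directions: LUM was called higher, from 1.07 to 4.71 CPM on average (log2 fold change 2.14, edgeR adjusted p = 0.00193), and PDGFRB lower, from 0.471 to 0.154 CPM (-1.60, edgeR adjusted p = 0.0474). The 4 endothelial markers summed to 2.30 to 3.23 CPM in shCtrl and 0.302 to 2.02 CPM in shAC007128.1 samples, and neither of the 2 tested passed. These 2 lay in opposite directions. VWF went from 2.18 to 0.807 CPM on average (log2 fold change -1.43, edgeR adjusted p = 0.101), and PECAM1 from 0.131 to 0.369 CPM (1.49, edgeR adjusted p = 0.251). The sums of both lists differed between the groups. They were far below the levels of chains such as LAMC1 and ITGA3, but close to that of ITGAX. The part of these markers in the results was not tested.

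**Figure D5:**
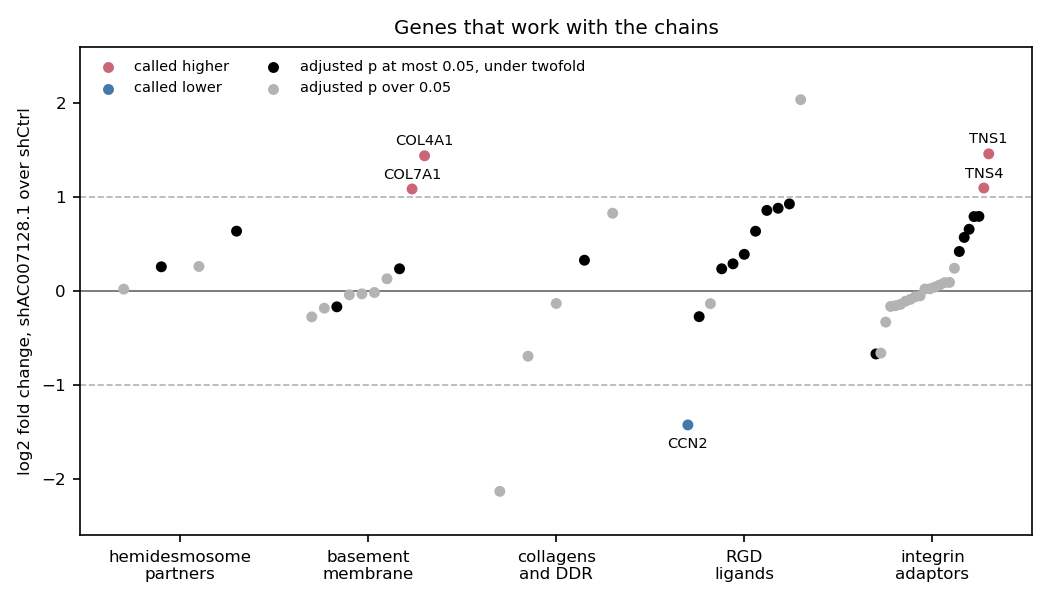
Log2 fold change of shAC007128.1 over shCtrl for each tested gene of 5 lists, colored by call; dashed lines mark the limit of 1 in size. COL4A1, COL7A1, TNS1 and TNS4 are called higher, CCN2 is called lower, and the grey points beyond the limit did not pass the adjusted p.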

How the data were processed

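RNA from 6 KYSE150 samples, 3 with shCtrl and 3 with shAC007128.1, was sequenced by the authors, whose methods name TopHat v2.0.9 and Cufflinks v2.1.1 on hg38. The submitters' processing notes also name TopHat2 2.0.6 and CASAVA 1.8, and a mouse genome build beside GRCh38. Their growth and treatment texts are the same for every sample, so the groups were taken from the sample titles. The deposited table holds estimated counts per gene, all whole numbers, with no scaling; the counting program, annotation and use of strand are not given in the sources used here, so reads of overlapping and antisense genes cannot be told apart. Low counts pile up at 4 (in shCtrl replicate 1, 1355 genes had 4 counts and 761 had 3), which is why counts divided by 4 were tried as an alternative.

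Totals were 55764405 to 78610457 counts per sample, with TMM factors of 0.967 to 1.042. Of 67140 identifiers, 60357 were found in GENCODE v44 and 19254 passed filterByExpr. All of these were fitted with edgeR 4.0.16 (quasi-likelihood test, R 4.3.3) on the group alone, with Benjamini-Hochberg adjustment over all genes tested. DESeq2 1.42.0, limma 3.58.1 (voom), other scalings, filters and samples left out in turn were alternatives. Ratios used counts plus 0.5 and exact permutation tests. Tested on simulated data for this comparison, with 18619 genes, edgeR called 131 of 200 changed genes (65.5%), 87.1% of the 147 at 1 CPM or more, and 9 unchanged ones.

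The 34 chains and all lists were chosen with earlier results of these data known. Named are all 34 chains, AC007128.1 and the 3 tested genes of smallest p in each list of partner genes, while the 4 cell type marker lists are given as counts and summed levels. KRT14, KRT17, TP63, LUM, PDGFRB, VWF, PECAM1, CD3E, CD14, LCP2 and PTPRC, named from the marker lists, were picked after their values were seen. The same holds for the partner genes marked so in the text. Replicate numbers did not pair the samples (correlation of deviations 0.031, -0.025 and -0.03). Promoter sequences are RefSeq's.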

Additional observations from a re-analysis of the deposited data

How the results depend on the processing

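ITGB6, LAMC1 and ITGAX were called under every alternative run. ITGB8 fell under the limit on fold change with library size alone, which left 1 chain called higher, and with samples left out in turn the number called higher ranged from 1 to 3, with ITGA7 added without shCtrl replicate 3, and the number called lower from 2 to 3, with ITGA3 added without shAC007128.1 replicate 1. With no fold limit 7 chains were called higher and 6 lower, and 4041 genes higher and 3820 lower over the whole table. With a replicate block, 977 genes were called higher and 1692 lower, 2 chains were called each way, and LAMA5 had an adjusted p of 0.058, as it missed the threshold with no filter (0.0571). ITGA3 passed the limit on fold change with library size alone (-1.06), without the filter (-1.02), with a minimum of 10 counts per sample (-1.02) and with counts divided by 4 (-1.001). With the longest transcript as length, the class differences were -1.91 points for RGD and -0.17 for the remaining chains.

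Signs that turned were all of chains with no call. LAMA2 had -0.056 with library size alone, -0.0246 without the filter, -0.0144 with a minimum of 10 counts, -0.0455 with limma-voom, -0.0389 with the replicate block and -0.0114 with counts divided by 4, and -0.27 to 0.27 with samples left out in turn. In the same fits ITGA9 ranged from -0.18 to 0.90, ITGAV from -0.119 to 0.0501 and LAMB2 from -0.0612 to 0.0354. The cause was not tested. No filter moved the median of all genes to -0.15 and library size alone to -0.10. With 3 samples a group an exact test cannot go below 0.1, and low chains such as ITGAM rest on few counts.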
